A study of Mus musculus with 2 samples.

Results

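A set of 9 genes linked to cell migration and to the matrix of the wound edge was followed through hair follicle stem cells and their progeny in mouse skin. They were picked by symbol from the gene list of the deposited matrix, and 9 of its 32285 genes are members. Fosl1, Runx1 and Hmga2 act on DNA, Fn1 and Tnc encode matrix proteins, Itga5 a matrix receptor, Fscn1 an actin-bundling protein, Lgals1 a galectin and Robo1 a guidance receptor. All mice carried a Sox9-CreER driver and an R26-LSL-YFP reporter on a C57B6/J background, so that YFP marked descendants of cells in which the Sox9 driver had been active. They were either Phgdh +/+ or Phgdh fl/fl, the latter carrying floxed alleles of the first enzyme of serine synthesis from glucose, and skin was unwounded or taken 3 or 5 days after wounding. The 6 groups were therefore unwounded, 3 days and 5 days in Phgdh +/+ mice and the same in Phgdh fl/fl mice, each with the driver and the reporter. The hashtag reference names the genotypes only as WT and cKO, which were read as +/+ and fl/fl. Animals of each group were pooled, males with females, and their ages and numbers are not given in the sources used here.

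Cells of all 6 groups carried 6 hashtag antibodies and were captured together, so each group is 1 pool without a replicate and no test between groups was possible. Unwounded cells were sorted for high integrin-α6, CD34, CD200 and YFP and against SCA1, while wounded cells were sorted for high integrin-α6 and YFP only, so part of any difference from unwounded skin cannot be told apart from the gates. The pools held 406 unwounded, 1281 3-day and 1353 5-day cells in Phgdh +/+, and 662, 523 and 1434 in Phgdh fl/fl. Total UMIs (unique transcript counts) ran from 3241223 to 70925244 a pool, and the median cell held 7174.5 and 7243 UMIs in the unwounded pools against 36277 to 45701.5 in the wounded ones. Phgdh stood at 54.3, 117 and 138 CPM (the gene's counts per 1000000 UMIs of the pool) in the +/+ pools and at 25.2, 15.3 and 20.2 in the fl/fl pools, in the order of the stages, but which exons are floxed is not given and 3′ counts need not lie in them. The basal keratins Krt5 and Krt14 were at 4616 CPM or more in every pool, the bulge marker Cd34 was at 527 and 534 CPM in the unwounded pools, and the fibroblast gene Dcn was at 0 there and at most 0.0736 CPM in wounds. The whole fibroblast list of 10 genes, which includes Sparc, Postn and Col6a1 that bulge cells also hold, had 6 and 7 members detected and summed to 1810 and 1880 CPM in the unwounded pools, against 104 to 302 CPM with 7 to 9 detected in wounds. Dcn, Lum and Pdgfrb were at 0 in both unwounded pools, and Col1a1 was at 2.78 and 2.32 CPM there. The part of fibroblasts alone in the results was not tested. Leaving out cells with 3 UMIs of another type's defining markers removed 0 and 1 unwounded cells and 6 to 14 cells of each wounded pool. The values without those cells are given with the other alternatives below. Cells called female by Xist made up 31.1% and 23.7% of the 3-day and 5-day +/+ pools and 0% of the other pools. Male calls covered 209 of 406 and 284 of 662 unwounded cells, and the other unwounded cells had no sex call. In the unwounded pools, 15 of 406 and 26 of 662 cells fell outside the bulge-like clusters and held an outsized share of some members' UMIs, so values are also given without them.

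When skin is cut, keratinocytes at the margin loosen from their neighbours, flatten, extend actin-rich protrusions and crawl beneath the clot over a provisional matrix in which fibronectin and tenascin-C are prominent. Integrin α5β1 is the classical fibronectin receptor, and epithelial cells at a wound margin are known to gain it. The FOSL1 protein (FRA-1) is an AP-1 subunit known from migrating and invasive epithelium. RUNX1 is a transcription factor known to act in hair follicle stem cells. HMGA2 is a chromatin protein of embryonic and migrating cells and a target of let-7 microRNAs.

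RefSeq promoter sequences of the GRCm38.p6 build were at hand for 6 of the 9 members, and the 250 bases upstream of the annotated start are shown for the 4 whose levels are followed most closely below in wound-edge cells. Capitals mark a TATA motif (TATANA) or a cyclic AMP response element (CRE, TGACGTCA), both searched on both strands.
Hmga2 (chr10:120476470-120476719, minus strand): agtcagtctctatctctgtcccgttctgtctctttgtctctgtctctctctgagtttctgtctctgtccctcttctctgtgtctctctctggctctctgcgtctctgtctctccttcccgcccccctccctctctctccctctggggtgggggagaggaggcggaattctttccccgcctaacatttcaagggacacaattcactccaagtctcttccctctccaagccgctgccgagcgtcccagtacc
Itga5 (chr15:103366792-103367041, minus strand): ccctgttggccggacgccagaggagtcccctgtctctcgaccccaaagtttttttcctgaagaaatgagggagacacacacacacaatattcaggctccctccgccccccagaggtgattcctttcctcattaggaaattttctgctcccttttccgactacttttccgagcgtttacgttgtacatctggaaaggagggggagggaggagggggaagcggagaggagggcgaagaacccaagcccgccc
Fscn1 (chr5:142960105-142960354, plus strand): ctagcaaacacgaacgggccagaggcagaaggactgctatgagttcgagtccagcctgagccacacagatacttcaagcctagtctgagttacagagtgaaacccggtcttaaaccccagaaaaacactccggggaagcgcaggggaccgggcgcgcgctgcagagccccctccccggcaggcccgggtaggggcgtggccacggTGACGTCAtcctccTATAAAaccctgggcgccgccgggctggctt
Tnc (chr4:64046937-64047186, minus strand): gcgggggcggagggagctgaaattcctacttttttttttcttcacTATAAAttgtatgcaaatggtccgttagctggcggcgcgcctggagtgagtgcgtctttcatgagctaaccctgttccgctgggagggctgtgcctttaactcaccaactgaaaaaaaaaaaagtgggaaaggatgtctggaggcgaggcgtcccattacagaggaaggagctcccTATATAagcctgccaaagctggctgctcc
The Fscn1 window held a CRE beginning at base -45 and a TATA motif beginning at -31, counted from the annotated start, where 1.55% of 32851 such windows held the CRE and 22.6% the TATA motif. One of 2 annotated Tnc starts, the one shown, had TATA motifs at -205 and -29. The Hmga2 window was 70.8% C or T, a share reached by 0.414% of all windows, whose median was 50%, and its longest run of C and T was 23 bases. Neither an AP-1 motif (TGANTCA, in 6.75% of windows) nor a RUNX motif (TGTGGT, in 14.1%) was in any of the 8 windows of these 6 members.

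Of the 9 genes, Fosl1, Fscn1 and Hmga2 were the ones at least 2-fold higher at 3 days than in unwounded cells, in both genotypes, and Robo1 was at least 2-fold higher at 5 days in both. The 3-day value of Hmga2 was under 2-fold with male-called cells alone (log2 folds 0.46 and 0.58) and with up to 20% mitochondrial UMIs (0.57 and 0.95), and in +/+ also with at most 5% (0.97) and with a plain hashtag rule (0.83). No fl/fl cell was called female, so in fl/fl the male-called setting only left out cells without a sex call. At 3 days in Phgdh +/+, 8 members had a mean of 5 CPM or above over both pools. Of these, 3 stood higher by 2-fold or more and 0 stood lower, where 11.8% of all 10304 genes at that level were higher and 28.1% lower. In Phgdh fl/fl the count at 3 days was again 3 of 8 higher and 0 lower, with 12.3% of all genes higher and 27.9% lower. At 5 days, 3 of 8 were 2-fold higher in +/+ (Fosl1, Fscn1 and Robo1; all genes: 10.8%) and 5 of 8 in fl/fl (with Hmga2 and Lgals1; all genes: 12.4%), and 0 were lower against 28.8% and 27.9% of all genes. The median log2 fold of the counted members at 3 days was 0.40 in +/+ and 0.37 in fl/fl, beside -0.29 and -0.31 over all genes. These folds are ratios of CPM with exact binomial intervals of counting error, and scaling by TMM factors (edgeR) in place of totals adds 0.53 to 0.60 to every log2 fold over unwounded, which moves the median of all genes from between -0.34 and -0.29 to between 0.23 and 0.27. By whole-pool totals only some members were therefore higher in wounds: Runx1 and Tnc were not, and Fn1 was close to absent. Such totals do not give the level at the wound edge itself. In each wounded pool, wound edge-like cells, described below, stood above the other cells for Tnc (log2 folds 0.94 to 3.17) and Runx1 (0.71 to 1.19). For Robo1 they stood below them (-2.18 to -0.53).

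**Figure D1:**
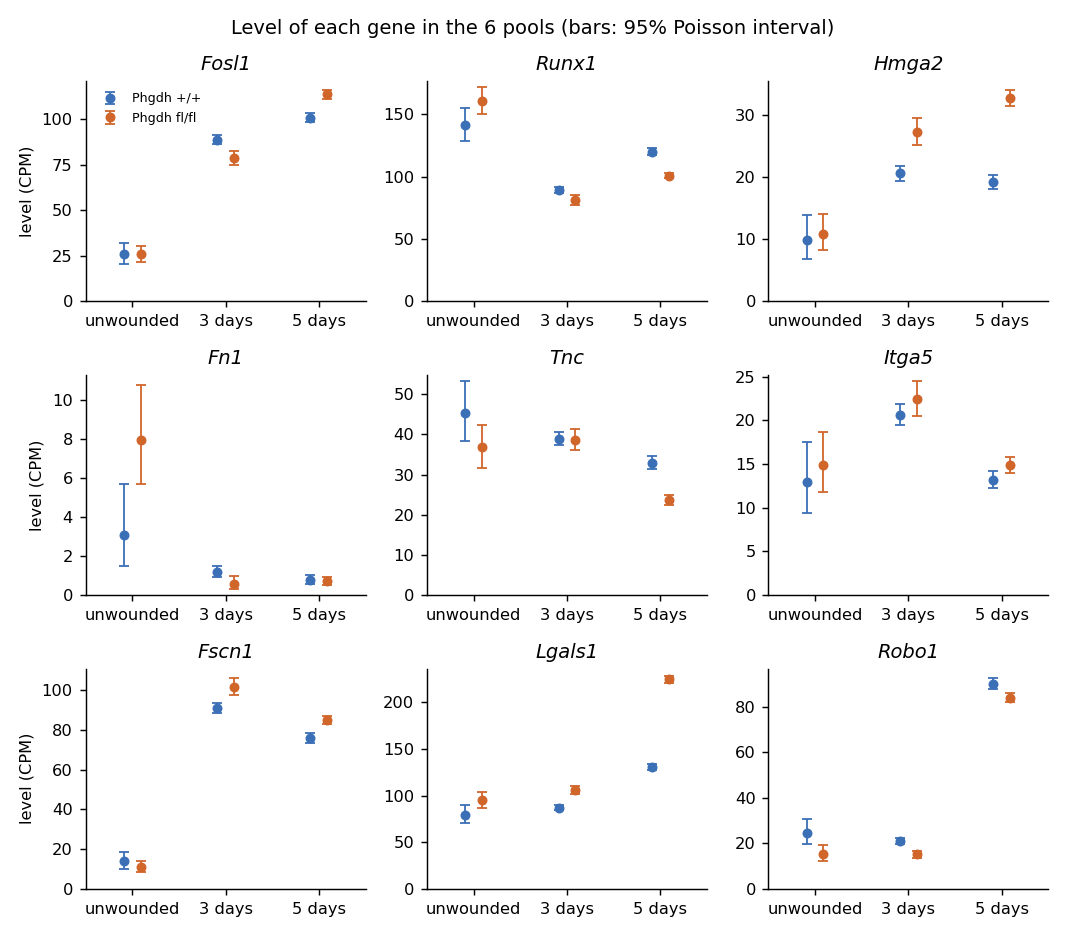
Level of each of the 9 genes in CPM (y axis, from 0) in unwounded, 3-day and 5-day cells (x axis) of Phgdh +/+ (blue) and Phgdh fl/fl (orange). Points are single pools and bars 95% Poisson intervals. Fosl1 and Fscn1 stand higher at both wound times, Robo1 stands highest at 5 days, and Fn1 is at most 7.93 CPM.

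Fosl1 stood at 25.9 CPM (95% Poisson interval 20.7 to 32.1) in unwounded +/+ cells, 88.5 (86.0 to 91.0) at 3 days and 101 (98.1 to 103) at 5 days. In fl/fl it stood at 25.7 (21.6 to 30.5), 78.6 (75.0 to 82.4) and 113.5 (111 to 116). Both unwounded pools lie below all 4 wounded pools, with log2 folds of 1.77 (1.46 to 2.10) and 1.61 (1.36 to 1.88) at 3 days and 1.96 and 2.14 at 5 days. The unwounded level rested on few cells: 5 cells held 64.3% of the +/+ UMIs, and the 391 bulge-like cells of the 406 held only 38.1% of them. Among bulge-like unwounded cells alone Fosl1 was at 11.4 (7.77 to 16.0) and 17.3 (13.7 to 21.5) CPM, and the 3-day log2 folds became 2.96 and 2.19. After thinning every cell to 5000 UMIs, 4.87% of 349 unwounded and 29.5% of 1255 3-day +/+ cells had a Fosl1 UMI, while unthinned, at the median depths above, the shares were 7.64% and 69.7%. An estimate of free RNA, from barcodes with 100 to 400 UMIs, equalled 10.3% and 10.6% of the unwounded Fosl1 UMIs.

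Other AP-1 genes did not share this. Of 9 counted relatives at 3 days in +/+, 0 were 2-fold higher and 4 were 2-fold lower, with a median log2 fold of -0.97, and in fl/fl 7 were lower. Over all genes, 11.8% were higher and 28.1% lower in +/+, and 27.9% were lower in fl/fl. Fosb, an immediate early gene, went from 1114 to 371 CPM in +/+ and Jun from 1669 to 620. Jund (log2 fold -1.39) and Maff (-1.08) were the other pair. By TMM factors these differences shrink by the shift given above.

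By totals of whole pools, Runx1 was higher at rest than in wounds. It stood at 142 CPM (129 to 155) in unwounded +/+ cells, 89.0 (86.5 to 91.5) at 3 days and 119.9 (117 to 123) at 5 days, and in fl/fl at 161 (149.9 to 172), 81.2 (77.5 to 85.0) and 101 (98.5 to 103). Both unwounded pools lie above all wounded pools, and 3 days is the lowest point in both genotypes, at log2 folds of -0.67 (-0.81 to -0.53) and -0.98 (-1.10 to -0.86). By TMM factors these became -0.11 and -0.45, and the 5-day +/+ value turned from -0.24 to 0.36, so the direction for Runx1 depends in part on the scaling. From 3 to 5 days it was higher by 0.43 (0.38 to 0.48) and 0.31 (0.24 to 0.39). Within the bulge-like cluster 4 of wounded cells, described below, Runx1 was at 144 and 174 CPM at 3 days in +/+ and fl/fl. At 5 days it was at 346 and 311 CPM there. In resting bulge-like cells Runx1 was at 151 and 161 CPM, below those 5-day values. Neither of its 2 counted relatives differed 2-fold: Runx2, known from bone, was at 5.6 CPM at rest with a log2 fold of 0.58 at 3 days in +/+, and the shared partner Cbfb at 67.6 CPM with -0.49.

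Hmga2 stood at 9.87 CPM (6.75 to 13.9) in unwounded +/+ cells, 20.6 (19.4 to 21.8) at 3 days and 19.2 (18.0 to 20.4) at 5 days. In fl/fl the levels were 10.8 (8.19 to 14.1), 27.2 (25.1 to 29.5) and 32.7 (31.4 to 34.0). The wounded pools lie above both unwounded pools, with log2 folds of 1.06 (0.55 to 1.61) and 1.33 (0.93 to 1.75) at 3 days, and the fl/fl wounds lie above the +/+ wounds. The size of that genotype difference depended on the processing. Its log2 fold ran from 0.06, without the 5 cells of most UMIs, to 0.61 at 3 days. At 5 days it ran from 0.37, with a plain hashtag rule, to 1.11. At rest only 17 and 16 cells had an Hmga2 UMI, and 5 of them held 56.2% and 75.0% of its UMIs. Bulge-like unwounded cells alone were at 7.46 and 3.88 CPM, which moves the 3-day log2 folds to 1.46 and 2.81, while male-called cells alone give 0.46 and 0.58. Thinned to 5000 UMIs, 4.01%, 5.26% and 4.19% of +/+ cells had a UMI, with overlapping intervals, and 1.73%, 6.76% and 6.79% of fl/fl cells. Of the related chromatin genes and let-7 partners, 3 of 8 were counted: Hmga1 (log2 fold 1.02 at 3 days in +/+), Hmgb2 (1.57), which also follows the cell cycle, and Hmgb1 (0.30). Lin28a, Lin28b and the Igf2bp genes were below the minimum.

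Fn1, which encodes fibronectin, was barely detected. The pools held 10, 64 and 42 UMIs in +/+ and 41, 13 and 50 in fl/fl, or 3.09, 1.18, 0.771, 7.93, 0.584 and 0.705 CPM. In wounds single cells carried much of it: at 5 days in fl/fl, 1 cell held 41 of the 50 UMIs, and the same cell held 667 UMIs of 5 melanocyte genes (Dct, Pmel, Mlana, Tyrp1 and Tyr) and 24 of Krt5 and Krt14. At 3 days in +/+, 22 of 64 UMIs lay in 1 cell and 20 in another that belonged to a 10-cell macrophage and myeloid-like cluster. The unwounded UMIs were spread more widely, over 7 and 21 cells, and 10 of 10 in +/+ and 32 of 41 in fl/fl lay in bulge-like clusters. With so few UMIs, no direction is given for Fn1: its 3-day genotype difference and, in +/+, its 3-day difference from rest each changed sign under another processing. Its log2 folds over unwounded stayed below 0 in every alternative at 5 days in +/+ (-2.52 to -0.54). They also did in fl/fl at 3 days (-4.53 to -2.19) and at 5 days (-7.79 to -2.93).

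Tnc, which encodes tenascin-C, did not separate wounds from rest at 3 days and was lower than at rest at 5 days by totals. It stood at 45.4 CPM (38.3 to 53.3), 38.9 (37.3 to 40.6) and 33.0 (31.5 to 34.5) in +/+ and at 36.8 (31.7 to 42.4), 38.7 (36.2 to 41.4) and 23.7 (22.6 to 24.8) in fl/fl. The 3-day pools overlap the unwounded ones, and the fl/fl 5-day pool is the lowest. The 3-day log2 folds were -0.22 (-0.46 to 0.03) and 0.07 (-0.15 to 0.31), and by TMM factors 0.34 and 0.61. At 5 days they were -0.46 (-0.70 to -0.21) and -0.64 (-0.85 to -0.41) by totals, to which TMM factors would add 0.60 and 0.56. Other matrix genes split: in +/+ at 3 days 5 of 16 were 2-fold higher and 10 were 2-fold lower. The matrix glycoprotein gene Sparc (447 to 23.1 CPM), the fibrillar collagen gene Col5a2 (log2 fold -4.22) and the basement membrane collagen gene Col4a2 (-3.75) were among the lower ones. In fl/fl 4 were higher and 10 lower. All genes gave 11.8% higher and 28.1% lower in +/+, and 12.3% and 27.9% in fl/fl.

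Over whole pools, Itga5 was slightly higher at 3 days and close to its resting level at 5 days. By TMM factors it was still 0.62 and 0.56 above that level at 5 days on the log2 scale. It stood at 13 CPM (9.34 to 17.5), 20.6 (19.4 to 21.8) and 13.2 (12.2 to 14.2) in +/+ and at 14.9 (11.8 to 18.6), 22.4 (20.5 to 24.4) and 14.9 (14.0 to 15.8) in fl/fl. The 3-day pools are the high ones in both genotypes. Their log2 folds over unwounded were 0.67 (0.22 to 1.15) and 0.59 (0.24 to 0.95), and the 5-day ones 0.02 and 0.00. Other integrins, syndecans and Cd44 gave 3 of 12 2-fold higher and 2 lower in +/+ at 3 days, and 2 higher and 4 lower in fl/fl. The shares over all genes were 11.8% higher and 28.1% lower in +/+, and 12.3% and 27.9% in fl/fl. The hyaluronan receptor Cd44 (log2 fold 1.39) and the hemidesmosome integrin Itga6 (1.17), used in both gates, were higher, and Itgb8 (-1.44), which activates latent TGF-β, and the collagen receptor Itga2 (-1.12) lower.

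Fscn1 encodes fascin, which packs actin filaments into the tight bundles of filopodia, and it gave the largest log2 fold of the members at 3 days. It stood at 13.9 CPM (10.1 to 18.6), 91.1 (88.5 to 93.6) and 75.9 (73.6 to 78.3) in +/+ and at 11.0 (8.35 to 14.3), 102 (97.6 to 106) and 85.1 (82.9 to 87.2) in fl/fl. Wounds and rest are far apart, with log2 folds of 2.71 (2.29 to 3.17) and 3.21 (2.83 to 3.61) at 3 days. At rest an estimate of free RNA equalled 19.7% and 25.4% of the Fscn1 UMIs, so the resting level is an upper value, and bulge-like unwounded cells alone were at 5.33 and 5.18 CPM. Thinned to 5000 UMIs, 3.44% of unwounded and 27.5% of 3-day +/+ cells had a UMI. In the list of 39 counted genes of actin bundling and protrusion, 10 were 2-fold higher and 2 lower at 3 days in +/+, and 12 and 2 in fl/fl, with medians of 0.58 and 0.55. Beside this, 11.8% of all genes were higher and 28.1% lower in +/+, and 12.3% and 27.9% in fl/fl. The tropomyosin Tpm2 (140 to 552 CPM), Anxa3 (log2 fold 2.01) and the thymosin Tmsb10 (1.62) were higher, and the smooth muscle type light chain Myl9 (-2.20) lower.

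Lgals1, galectin-1, is a lectin that binds β-galactosides on matrix proteins and receptors. It stood at 79.6 CPM (70.2 to 89.9), 86.9 (84.4 to 89.4) and 130.5 (127 to 134) in +/+ and at 95.2 (87.0 to 104), 106 (102 to 110.3) and 224 (221 to 228) in fl/fl. At 3 days it overlapped or nearly met the resting level in both genotypes, with log2 folds of 0.13 (-0.05 to 0.31) and 0.15 (0.01 to 0.30), or 0.69 in both by TMM factors, and the fl/fl 5-day pool stood highest. The 5-day log2 folds were 0.71 (0.53 to 0.90) and 1.24 (1.11 to 1.37). At rest 1 cell held 15.9% of the fl/fl UMIs. Bulge-like unwounded cells alone were at 70.7 (61.2 to 81.2) and 77.2 (69.4 to 85.7) CPM, with intervals below those of the 3-day pools. Among the other galectins, 2 of 4 counted were 2-fold higher and 1 lower at 3 days in +/+: the keratinocyte galectin Lgals7 (5078 to 10888 CPM) and Lgals9 (log2 fold 1.0) were higher, Lgals8 (-1.17) lower, and Lgals3 was at 0.61. Over all genes the shares in +/+ were 11.8% higher and 28.1% lower.

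Robo1, a receptor for Slit ligands that steers migrating cells and axons, was the late member. It stood at 24.7 CPM (19.6 to 30.7), 21.0 (19.8 to 22.3) and 90.1 (87.6 to 92.6) in +/+ and at 15.5 (12.3 to 19.3), 15.1 (13.5 to 16.8) and 83.9 (81.8 to 86.1) in fl/fl. The 5-day pools stand apart from the other 4, with log2 folds of 5 over 3 days of 2.10 (2.0 to 2.19) and 2.47 (2.31 to 2.64). At rest 1 cell held 56.2% of the +/+ UMIs, and bulge-like unwounded cells alone were at 9.23 and 11.2 CPM. Against those the 3-day +/+ value turned from -0.23 to 1.19, and without the 5 cells of most UMIs to 1.39, so no direction is given for 3 days. Of 6 counted genes around it, 1 was 2-fold higher and 3 lower at 3 days in +/+: the ligand Slit3 went from 233 to 17.3 CPM, the Slit-Robo GTPase-activating proteins Srgap3 and Srgap1 had log2 folds of -3.36 and -2.56, and the Slit-binding glypican Gpc1 had 1.13. In fl/fl 0 were higher and 4 lower. Higher and lower shares over all genes were 11.8% and 28.1% in +/+, and 12.3% and 27.9% in fl/fl.

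The share of cells with a UMI, after thinning each cell to 5000 UMIs, gave a second view of Robo1, Runx1 and Lgals1, with 20 to 84 shallower cells left out of each pool. Robo1 had a UMI in 3.15% of unwounded, 8.13% of 3-day and 24.7% of 5-day +/+ cells, and in 4.67%, 4.37% and 26.5% of fl/fl cells. The 5-day pools again stood apart in both genotypes. Runx1 had one in 47.9%, 32.2% and 38.4% of +/+ cells and in 49.3%, 34.0% and 35.6% of fl/fl cells, with the unwounded pools highest. Lgals1 had one in 26.1%, 21.8% and 24.1% of +/+ cells and in 28.2%, 24.7% and 39.7% of fl/fl cells. For Lgals1 at 3 days in both genotypes and at 5 days in +/+ the share was below and the CPM above the unwounded value, so no order is read from those shares.

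**Figure D2:**
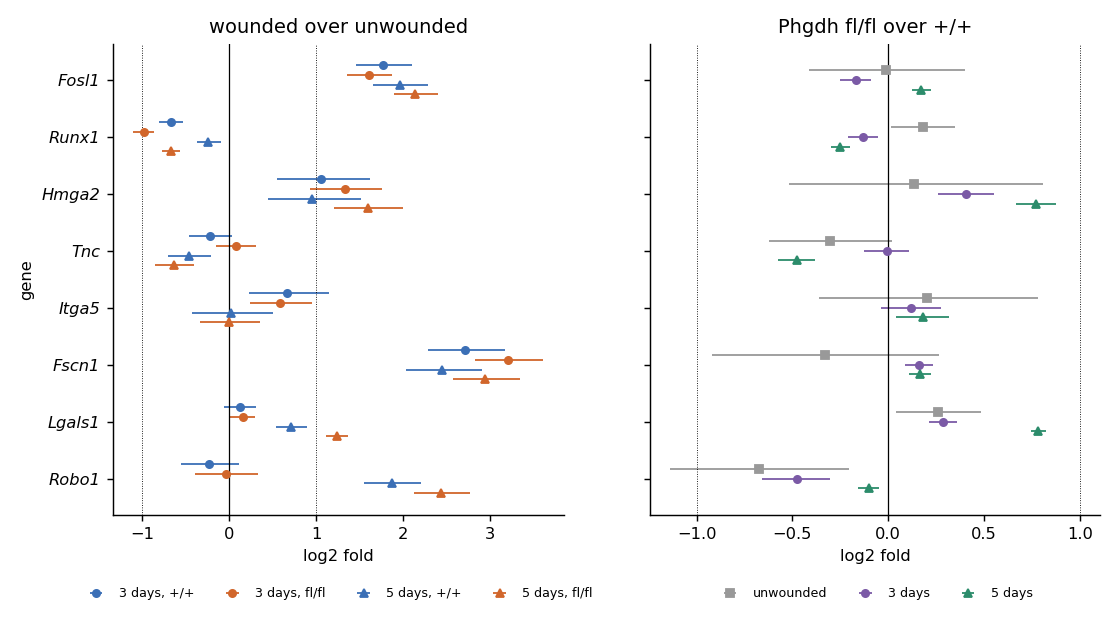
Log2 fold (x axis) of the 8 members other than Fn1 (y axis), with 95% binomial intervals. Left, 3 days (circles) and 5 days (triangles) over unwounded in Phgdh +/+ (blue) and fl/fl (orange); right, fl/fl over +/+ in unwounded (squares), 3-day (circles) and 5-day (triangles) pools. Fscn1 and Fosl1 lie right of the dotted line at 1 (2-fold) in all 4 wound comparisons, and no genotype difference reaches 2-fold.

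The 9 members differed sharply in which wound cells held them. Cells were clustered without the 9 genes, and 14 clusters had at least 50 wounded cells. One of them, cluster 6, was called wound edge-like because 9 of 10 markers (Mmp13, Mmp9, Mmp1b, Mmp10, Itga2, Plau, Plaur, Mmp3, Timp3 and Inhba) were raised in it, and its leading genes were the metalloproteinases Mmp10, Mmp13 and Mmp9. It held 148 of 1281 3-day and 72 of 1353 5-day +/+ cells, or 11.6% (95% Clopper-Pearson interval 9.85 to 13.4) and 5.32% (4.19 to 6.65), and 65 of 523 and 94 of 1434 fl/fl cells, or 12.4% (9.72 to 15.6) and 6.56% (5.33 to 7.96). In the unwounded pools it held 0 of 406 and 1 of 662 cells. As the clusters were made from these same cells, levels in them are given as a description.

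Hmga2, Itga5, Fscn1 and Lgals1 had their highest level of the 14 clusters in the wound edge-like cells, and so they did within each of the 4 wounded pools among clusters with at least 20 cells. These cells were 8.26% of the wounded cells and held 61.8% of the Hmga2 UMIs, 53.0% of Itga5, 27.3% of Lgals1 and 21.7% of Fscn1. Hmga2 was at 165 CPM there, and at 39.3 in the next cluster, cycling-like cluster 5. Itga5 was at 94.0 CPM, and at 17 in the next. After thinning, 33.4% of wound edge-like cells and 0.452% of suprabasal-like cells had an Hmga2 UMI, at median depths of 47276 and 42598 UMIs. Unthinned, the shares were 66.5% and 4.30%. Fscn1 was broader, at 197 CPM in these cells and between 97.4 and 106 in the wound keratin-like, both cycling-like and cornified-gene-led (cluster 12) cells. Lgals1 was at 430 CPM, with 204 and 199 in the cycling-like clusters.

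The other members peaked elsewhere over the pooled wounds, but clusters are unevenly spread over the pools and some orders differ within them. Tnc was highest in the wounded bulge-like cluster 4 (179 CPM), next in wound edge-like cells (104), and at 1.45 CPM in suprabasal-like cells. At 5 days in fl/fl that order was turned, with 137 CPM in wound edge-like cells and 80.4 in cluster 4. Fosl1 was highest in unnamed cluster 10 (207 CPM), led by the interferon-response genes Cxcl9, Ifit3 and Ifit1, and second in wound edge-like cells (161). Cluster 10 held mostly 5-day cells, and at 3 days wound edge-like cells stood first for Fosl1, at 152 and 135 CPM. Runx1 also had its pooled maximum in cluster 10 (259 CPM), yet at 5 days unnamed cluster 15 (505 and 434 CPM in +/+ and fl/fl) and bulge-like cluster 4 (346 and 311) stood above it (267 and 279). At 3 days Runx1 was highest in wound edge-like cells in +/+ (172.5 CPM) and in cluster 4 in fl/fl (174). Robo1 was low in wound edge-like cells, which ranked 13 of 14 over the pooled wounds (17.6 CPM), 9 of 13 and 9 of 9 at 3 days, and 12 of 12 and 11 of 12 at 5 days, in +/+ and fl/fl. It was highest over the pooled wounds in unnamed cluster 9 (204), led by Tspear, Sox6 and Wnt16, and in suprabasal-like cells (150). Fn1 was highest in unnamed cluster 11 at 9.31 CPM, where 9 of 206 cells held at least 3 melanocyte UMIs. At a coarser clustering with 10 clusters, 5 members instead of 4 were highest in the wound edge cluster, Fosl1 being added.

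**Figure D3:**
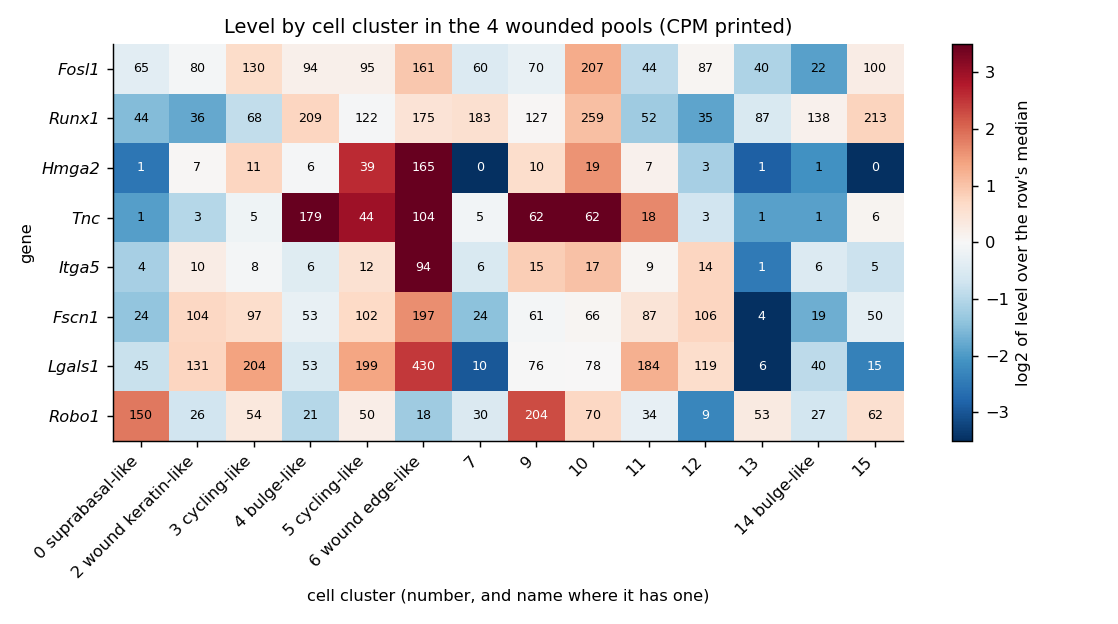
Level of 8 members (rows) in each cell cluster with at least 50 wounded cells (columns), over the 4 wounded pools together. Printed numbers are CPM and colours the log2 of the level over the median of the row, with colours ending at 3.5 either way. Hmga2, Itga5, Fscn1 and Lgals1 peak in the wound edge-like cluster 6, Tnc in cluster 4 and Robo1 in clusters 9 and 0.

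Within the wound edge-like cells, Hmga2, Tnc and Lgals1 were higher at 5 than at 3 days, by 2-fold or more for Hmga2 and Tnc, which were level or lower over whole pools except for Hmga2 in fl/fl. Hmga2 went from 98.0 to 207 CPM in +/+ and from 102 to 272 in fl/fl, log2 folds of 1.08 (0.93 to 1.23) and 1.41 (1.23 to 1.59), against -0.10 and 0.26 in whole pools. In whole pools 5 cells held 15.5% and 28.6% of the Hmga2 UMIs at 3 and 5 days in +/+, and 34.2% and 18.2% in fl/fl. The intervals do not cover such spread between cells. Tnc went from 70.9 to 156 and from 65.7 to 137 CPM, log2 folds of 1.14 (0.96 to 1.31) and 1.06 (0.84 to 1.3), against -0.24 and -0.71 in whole pools. Lgals1 went from 298 to 508 and from 322 to 639 CPM, log2 folds of 0.77 and 0.99. Fscn1 and Itga5, in contrast, were lower at 5 days in these cells: Fscn1 went from 217 to 175 and from 228 to 166 CPM, and Itga5 from 104 to 84.6 and from 105 to 78.8. Over the same interval the cluster's share of cells went from 11.6% to 5.32% and from 12.4% to 6.56%, and among all other cells Tnc went from 33.9 to 23.9 and from 34.3 to 15.3 CPM. All 5 directions are the same in both genotypes, though each rests on 1 pool of 65 to 148 cells a time point.

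**Figure D4:**
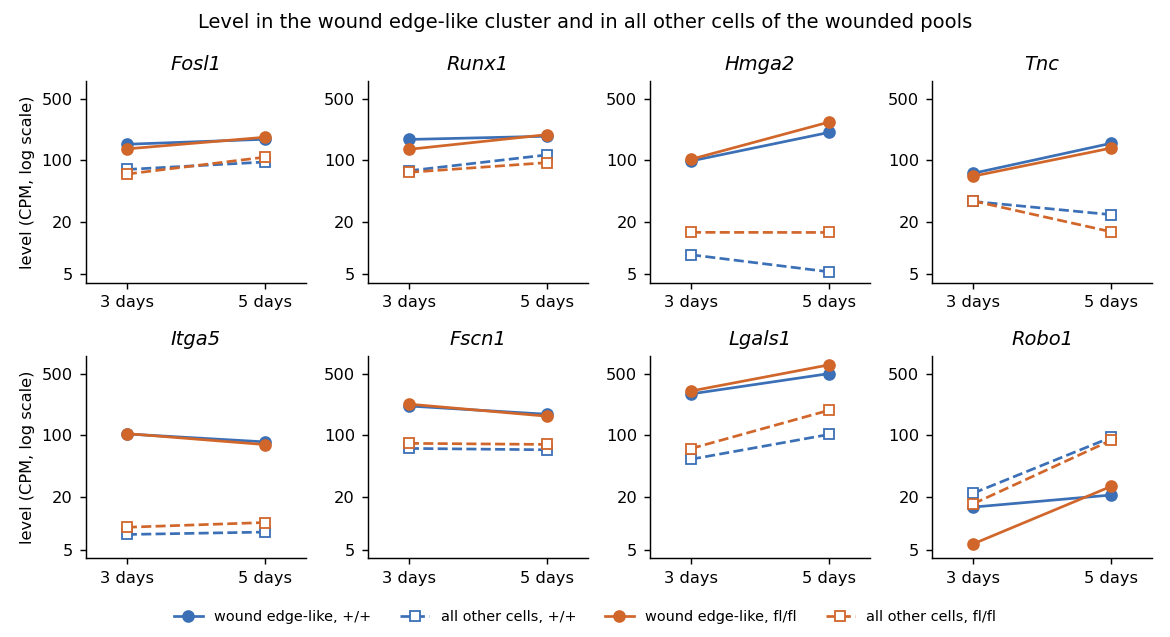
Level in CPM (y axis, log scale) at 3 and 5 days (x axis) in wound edge-like cells (filled circles) and in all other wounded cells (open squares) of Phgdh +/+ (blue) and fl/fl (orange). Lines join pools of different animals. Hmga2, Tnc and Lgals1 lie higher at 5 days in wound edge-like cells, Itga5 and Fscn1 lower, and Robo1 lies below the other cells throughout.

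In whole pools, Robo1 was the 1 member of 8 at least 2-fold different between 5 and 3 days in +/+, where 1.52% of all genes were, and Robo1 and Lgals1 were the 2 of 8 in fl/fl, where 3.08% were. The Robo1 difference was spread over cell types: it was higher at 5 days in all 11 clusters with at least 20 cells in both +/+ pools, each with an interval above 0, and in 8 of 9 clusters in fl/fl. The exception was cluster 12, at 20.7 and 2.3 CPM in 26 and 22 cells. In suprabasal-like cells Robo1 went from 33.4 to 206 CPM in +/+ and from 33.3 to 167 in fl/fl. Lgals1 was higher in 10 of 11 and 9 of 9 clusters, and Runx1 in 10 of 11 and 8 of 9, with 144 to 346 CPM in bulge-like cluster 4 in +/+ and 174 to 311 in fl/fl. Itga5 was lower in whole pools by -0.65 (-0.78 to -0.51) and -0.59 (-0.74 to -0.43), but its clusters did not share that direction in +/+, where it was higher at 5 days in 6 of 11 (median log2 fold 0.69, 2 intervals above 0 and 1 below). In fl/fl it was higher in 3 of 9 clusters (median -0.13).

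The pools also allowed Phgdh fl/fl cells to be set beside +/+ cells at each stage. No member differed 2-fold at 3 days (0 of 8; 0.374% of all genes) or at 5 days (0 of 8; 0.95%), and in unwounded cells 1 of 9 did, Fn1, where 1.43% of all genes did. The largest differences in wounds were at 5 days: Lgals1 was at 224 against 130.5 CPM (log2 fold 0.78, 0.74 to 0.82), Hmga2 at 32.7 against 19.2 (0.77, 0.66 to 0.88) and Tnc at 23.7 against 33.0 (-0.48, -0.57 to -0.38). The Hmga2 value ran from 0.37 to 1.11 under other processing. Lgals1 was higher in fl/fl in 10 of 11 clusters and Hmga2 in 9 of 11 at 5 days, while Tnc was higher in 2 of 11. In wound edge-like cells themselves the 5-day differences were 0.33 (0.25 to 0.41) for Lgals1, 0.39 (0.26 to 0.52) for Hmga2 and -0.18 (-0.34 to -0.02) for Tnc. At 3 days those cells differed by 0.11, 0.06 and -0.11, and by 0.01 for Itga5 and 0.07 for Fscn1. Fscn1 was at 85.1 against 75.9 CPM at 5 days (0.16) and Robo1 at 15.1 against 21.0 CPM at 3 days (-0.48).

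Sexes were unequal between these pools, and within the +/+ pools cells called female and male differed for several members. At 5 days Fosl1 was at 54.9 CPM in 320 female and 111 in 891 male cells, Fscn1 at 51.4 and 82.0, and Lgals1 at 97.2 and 139. The female over male log2 folds were -1.01 for Fosl1 and -0.67 for Fscn1, beside genotype log2 folds of 0.17 and 0.16, and -0.51 for Lgals1, beside 0.78. At 3 days Itga5 was at 26.9 CPM in 399 female and 16.6 in 748 male cells. Wound edge-like cells were 14.3% of female and 9.76% of male cells at 3 days, and 4.38% and 6.17% at 5 days. As sexes are different animals, sex and animal cannot be told apart. In male cells alone, the 5-day fl/fl over +/+ log2 fold was 0.72 for Lgals1, 0.68 for Hmga2, -0.38 for Tnc, 0.06 for Fscn1 and 0.04 for Fosl1, the last beside 0.17 in whole pools.

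Across single wounded cells Hmga2, Itga5, Fscn1 and Lgals1 went together most, Fosl1, Tnc and Runx1 were tied more loosely, and Robo1 and Fn1 stood apart. Of the 36 pairs, 10 had a mean Pearson correlation of log counts of at least 0.2 over the 4 wounded pools, and the median was 0.10. Runx1 reached 0.2 only with Tnc (0.23), and was at 0.04 with both Fscn1 and Lgals1. The values are a description, as genes of a cell share its library and depth. Hmga2 with Lgals1 (0.43), Fscn1 with Lgals1 (0.41), Hmga2 with Itga5 (0.34) and Itga5 with Fscn1 (0.34) were the highest, and Robo1 had negative values with 7 of the 8 others, down to -0.12 with Fscn1. The genes of at least 20 CPM most like each member by the same measure were, for Hmga2, the mucin-type glycoprotein Pdpn (0.46), the cytokine Il24 (0.41) and the laminin chain Lamb3 (0.40). For Itga5 they were the matrix receptor Antxr2 (0.53) and the laminin chain Lama3 (0.51). Fscn1 was most like the actin genes Actb (0.57), Tmsb10 (0.55) and Pfn1 (0.55), and Tnc was most like the collagens Col18a1 (0.42) and Col17a1 (0.42) and Crip1 (0.38). Lgals1 was followed by Cotl1 (0.52), Ctsl (0.49) and S100a6 (0.44), and Fosl1 by Nfkbia (0.54), Klf6 (0.53) and Ifrd1 (0.51), of which Nfkbia and Klf6 are early response genes. Runx1 was most like Nedd9 (0.46), Jmjd1c (0.43) and Sox4 (0.43), Robo1 was most like Thrb (0.30), Tent5a (0.27) and Foxn3 (0.24), and no gene reached 0.2 with Fn1.

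**Figure D5:**
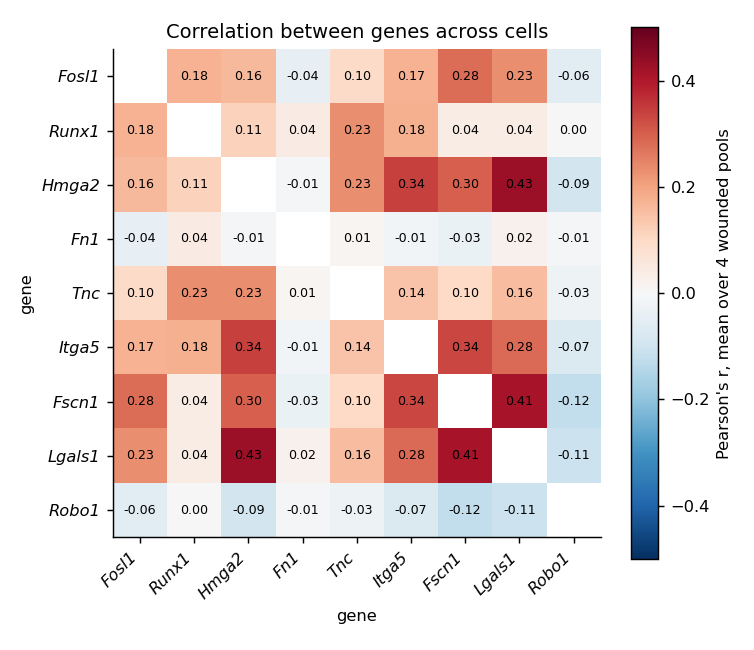
Pearson's r between each pair of the 9 genes across cells (colour and printed value), computed on log counts in each wounded pool and averaged over the 4 pools. Hmga2, Itga5, Fscn1 and Lgals1 share the highest values, and the Robo1 row is near or below 0.

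Few regulators of epithelial plasticity and TGF-β signalling differed 2-fold by pool totals. Of 9 counted in a list of 15, 0 were 2-fold higher and 0 lower at 3 days in +/+ (median log2 fold -0.04), and 0 and 1 in fl/fl, where 11.8% and 28.1% of all genes were higher and lower in +/+ and 12.3% and 27.9% in fl/fl. The TMM shift given above would add to each of these values. The epithelial cadherin Cdh1 was at 162 CPM at rest and 309 at 3 days in +/+, the receptor Tgfbr1 had a log2 fold of -0.70, the inhibitor Smad7 one of -0.50, and Tgfb2 one of -0.93 at 8.3 CPM at rest.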

How the data were processed

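Droplet 3′ RNA-seq with hashtag antibodies measured RNA in 6 pools of sorted cells captured together. The authors aligned and counted reads with Cell Ranger 7.1.0 on mm10 and worked in Seurat 4.3.0, per the submitters' processing notes, and deposited raw UMI counts per gene or hashtag and barcode, with no cell calls used here. Of 2997303 barcodes, 6900 were retained by minimums of 1000 UMIs and 500 detected genes and a ceiling of 10% for the mitochondrial share, and 5659 singlets were assigned with HTODemux (Seurat 5.3.0, R 4.3.3, quantile 0.99), whose doublets were left out. Counts were summed per pool and divided by its total. Intervals were computed with scipy 1.17.1 (exact Poisson for CPM, conditional binomial for folds, Clopper-Pearson for shares) at 95% and cover counting error only. With 1 pool a group there was no test, and a gene was counted as different at a fold of 2 or more and a mean of at least 5 CPM. Folds and intervals were also run on simulated pools with Poisson counts. Those held no spread between cells or animals, so they cannot show how the intervals fare with it. Clusters came from scanpy 1.11.5 (Python 3.11.15) on 2000 variable genes without the members, with 30 principal components, 15 neighbours and Leiden resolution 1, and the rule for naming them was tightened after the data were seen, as was the choice of sex calls. Free RNA was estimated from barcodes of 100 to 400 UMIs. TMM factors came from edgeR 4.0.16. The 9 members, the related lists and the markers were chosen with earlier results of these data known. All members were named, with up to 4 genes of each related list with the largest difference at 3 days in +/+, and the 3 genes most like each member among those with a correlation of at least 0.2. Some genes that this rule names are not reported here. Alternatives varied cell filters, hashtag rule, scaling, weighting, cells left out, sexes, free RNA, the CPM minimum, thinning and clustering.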

Additional observations from a re-analysis of the deposited data

Results flagged for a closer look

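Some members stood on opposite sides of 0 at different stages, with intervals of counting error clear of 0, but none of these differences between effects was tested. For fl/fl over +/+, the log2 fold of Fosl1 was -0.17 at 3 days and 0.17 at 5 days, and that of Runx1 was 0.18 (0.02 to 0.35) in unwounded cells, -0.13 at 3 days and -0.25 at 5 days. Among bulge-like unwounded cells alone the Runx1 intervals overlapped, at 137 to 166 CPM in +/+ and 150 to 173 in fl/fl. For Fn1, at 10 to 64 UMIs a pool, the log2 fold was 1.36 in unwounded cells and -1.01 at 3 days. That 3-day value changed sign in 3 alternatives, so no direction is read from it.

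Within the Phgdh +/+ pools, cells called female stood above male cells at 3 days and below them at 5 days for 4 members. The female over male log2 fold was 0.40 and -0.35 for Hmga2, 0.12 and -0.67 for Fscn1, 0.46 and -0.51 for Lgals1, and 0.43 and -0.31 for Robo1. The animals behind the cells of each sex are different ones, and their number is not given.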

How the results depend on the processing

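No paired analysis was possible because each group is 1 pool and no replicate numbers exist. Counts of members under another setting stayed within 1.5 times the count given above in 210 cases and moved further in 33. Log2 folds of single members stayed within the counting interval in 660 of 957 cases. Their sign changed in 89 cases, 6 of them for values of 2-fold or more and 83 for smaller ones, most often for Robo1 (21), Itga5 (17) and Tnc (15), and in 0 cases for Fscn1. With cells of at least 2000 UMIs, 1 member was 2-fold higher in fl/fl at 5 days. With at most 5% mitochondrial UMIs, 2 members were lower at 3 and 2 at 5 days in fl/fl, 1 was higher at 5 than at 3 days in fl/fl, and Fn1 at 3 days was 2.05 for fl/fl over +/+. That Fn1 value was 0.29 at 20% mitochondrial UMIs and 0.24 with a plain hashtag rule, under which 1 member was lower in unwounded fl/fl. TMM factors gave 5 members higher at 5 days in +/+ and 0 in unwounded fl/fl. Equal weight per cell gave 1 lower (+/+) and 1 higher (fl/fl) at 5 than at 3 days, 0 higher in unwounded fl/fl, and Fn1 at 1.35 for 3 days in +/+. Leaving out cells with 3 UMIs of another type's markers kept only 15 of 406 and 24 of 662 unwounded cells, as bulge cells hold several of these markers. It gave 3 lower at 3 days, 2 higher and 2 lower at 5 days in fl/fl, 1 lower at 5 than at 3 days in +/+ and 1 higher and 1 lower in fl/fl, 3 higher in unwounded fl/fl, 1 higher and 1 lower in fl/fl at 5 days, Fosl1 at -0.61 for 3 days in fl/fl and Lgals1 at -0.56 for 5 days in fl/fl. With those cells left out Fscn1 was also under 2-fold at 3 days in +/+ (0.57) and at 5 days in +/+ (0.0032) and fl/fl (0.64), and Fosl1 at 5 days in fl/fl (0.01). A narrower rule used only the defining markers of other types. It left out 0, 14 and 12 +/+ cells and 1, 6 and 7 fl/fl cells, in the order of the stages. Hmga2 was then at 1.06 and 0.96 over unwounded in +/+ and at 1.33 and 1.56 in fl/fl. Of the 2-fold values of single members, only Fn1 for fl/fl over +/+ at 3 days fell under 2-fold with this rule (-0.71). Male-called cells gave 2 lower at 3 and 1 at 5 days in fl/fl. Without the 5 cells of most UMIs 0 were higher in unwounded fl/fl, and with free RNA subtracted 1 was lower at 3 days in fl/fl. With no CPM minimum Fn1 was added, giving 1 lower in each of the 4 comparisons with unwounded cells and 1 lower in fl/fl at 3 days. Further alternatives were chosen after seeing the data: bulge-like unwounded cells alone gave 0 higher in unwounded fl/fl, and unthinned shares were higher for 8 members in all 4 wound comparisons, against 4, 4, 5 and 5 when thinned. Other causes of these moves were not tested. The unwounded pools hold far fewer UMIs than the wounded ones, which limits members with few UMIs there.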

Other observations

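Unwounded bulge-like cells were not uniform for the members. Cluster 1, the most frequent with 242 +/+ and 353 fl/fl cells, held Fosl1 at 5.04 (95% Poisson interval 2.30 to 9.56) and 1.96 (0.636 to 4.57) CPM. Cluster 8, led in part by Ccn1 and Ccn2, which are known targets of the mechanosensitive factor YAP, held it at 23.8 (13.3 to 39.2) and 39.9 (30.7 to 51.0) CPM in 78 and 202 cells. Tnc stood at 43.7 and 41.2 CPM in cluster 1 and at 76.1 (56.1 to 101) and 28.7 (21.0 to 38.3) in cluster 8, so the genotypes differed in cluster 8 and not beyond the counting intervals in cluster 1. In cluster 14, led by Aspn, Col4a3 and Col4a4, Tnc had 0 and 1 UMIs in 20 and 40 cells. Lgals1 was at 83.4 and 85.8 CPM in cluster 1 and at 12.4 and 5.04, from 3 and 1 UMIs, in cluster 16, whose cells had median depths of 4720 and 4628 UMIs. The clusters were made from these same cells, so these levels are a description without a test.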
